A study of Mus musculus with 12 samples.

Results

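Signals of probe sets annotated to 4 antibody genes were followed through the spleens of 12 BALB/c mice. The genes were those of the immunoglobulin heavy chains mu (Ighm), gamma 3 (Ighg3) and alpha (Igha), and of the J chain (Jchain). Which transcripts each probe set binds was not tested. Members were all probe sets of the array whose only gene symbol in the platform annotation was Ighm, Ighg3, Igha or Jchain, which gave 19 of 45101 probe sets: 11 for Ighm, 4 for Ighg3, 3 for Igha and 1 for Jchain. A further 4 probe sets carry a member's symbol beside others and were left out. Wild-type (wt) and Il1rn-deficient (ko) mice were taken at the age of 1 month or of 4 months, 3 per genotype and age, and all were of the BALB/c strain. Each mouse gave 1 Affymetrix array of Trizol-extracted total spleen RNA. Il1rn encodes the IL-1 receptor antagonist, a secreted protein that blocks the IL-1 receptor, and its loss on this strain is known to lead to inflammatory arthritis without further treatment. The question, by the title, was which genes go with phases of that disease. The 4 genes were selected on their signals in the genotype and age comparisons of these same arrays, so their values are a description and carry no p-value.

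An antibody is a pair of heavy and a pair of light chains, and the heavy chain constant region sets its class. A resting B cell makes mu chains as membrane IgM. After activation, class switch recombination joins the same variable region to a constant gene farther along the locus, and a plasma cell then secretes the antibody in large amounts. The mouse gene table places the heavy chain constant genes on chromosome 12 in the order Ighm, Ighd, Ighg3, Ighg1, Ighg2b, Ighg2c, Ighe and Igha, and Jchain on another chromosome. The J chain is a small polypeptide that links IgM into pentamers and IgA into dimers, and lets both be carried across mucosal epithelium. IgG3 is a mouse IgG class made early in responses to carbohydrate antigens, and IgA is the main antibody of the gut. In the spleen, plasma cells lie mostly in the red pulp, while IgM-bearing B cells fill the follicles and the marginal zone.

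Il1rn went with the labels at both ages. Signals are given after scaling each array to a 2% trimmed mean of 500, and differences are on the log2 scale after an offset of 32 was added, each with its SE from a limma model of 3 mice per group. On the tested Il1rn probe set with the largest difference, the scaled signal was 120 to 163 in wt and 5.64 to 40.6 in ko at 1 month, and 161 to 278 in wt and 10.1 to 40.8 in ko at 4 months. By their highest deposited signal the arrays fell into a low set of 6, at 33427 to 37921, and a high set of 6, at 51247 to 68987. All 3 ko arrays at 1 month and wt replicate 3 of that age were in the low set, and at 4 months wt replicate 3 and ko replicate 2 were. Apart from these sets, a pair of arrays stood out: wt at 4 months replicate 1, whose ratio of 3' to 5' signal was 0.999 for Gapdh against 0.649 to 0.816 elsewhere, and wt at 4 months replicate 2, whose summed signal of 8 pancreas genes was 154631 against at most 2554 on the other 11 arrays.

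Signals of Igha, of 2 Ighg3 probe sets and of 5 Ighm probe sets were higher at 4 months than at 1 month in both genotypes, without overlap. Among them, the log2 difference was 1.53 in wt and 2.03 in ko for Ighm 1452535_at. For Ighg3 1447998_at it was 0.45 and 0.66. The genotypes overlapped at 4 months in this pair. Mean signals were compared for Igha, Ighg3 1427503_at and 2 of the other 4 Ighm probe sets, those that read over 100 on all arrays. They were 3.40-fold to 11.7-fold higher at 4 months in wt and 8.40-fold to 30.2-fold higher in ko. Ighg3 1427503_at and these 2 Ighm probe sets were also 4.77-fold to 5.26-fold higher in ko than in wt at 4 months. At 1 month the ratio was 0.90 to 0.99. The signals of Jchain and of the 2 brightest Ighm probe sets differed by less than 1 log2 unit in every comparison. These 3 read at 39.8% to 100% of the highest signal of their array, and whether a ceiling compressed their differences was not tested. Over all 19 probe sets, the 3 ko arrays lay above the 3 wt arrays in 5 and below them in 1 at 1 month, and above in 7 and below in 0 at 4 months. Among all tested probe sets the share lying above was 7.99% at 1 month and 10.9% at 4 months, and the share lying below was 11.9% and 11.4%. With age, the 4-month arrays lay above the 1-month arrays in 10 of the 19 in wt and in 15 in ko, and below in 0, where the share lying above among all tested probe sets was 18.4% in wt and 28.3% in ko, and the share lying below 13.2% and 18.2%. These shares are over probe sets that reached a scaled signal of 100 in at least 3 arrays, as 13 of the 19 did. Ighm 1427756_x_at and 1425324_x_at did so only with the 4-month arrays. The filter thus favours counting this pair as higher with age. Among the 13, the ko arrays lay above the wt arrays in 4 at 1 month and in 7 at 4 months, the 4-month arrays lay above in 10 in wt and in 12 in ko, and 0 lay below in any of the 4 comparisons. Of the 4 at 1 month, Ighm 1427756_x_at read only 23.3 to 81.2 in wt and 87.7 to 114 in ko. In bulk spleen RNA, fewer cells of a type and less RNA per cell cannot be told apart.

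**Figure D1:**
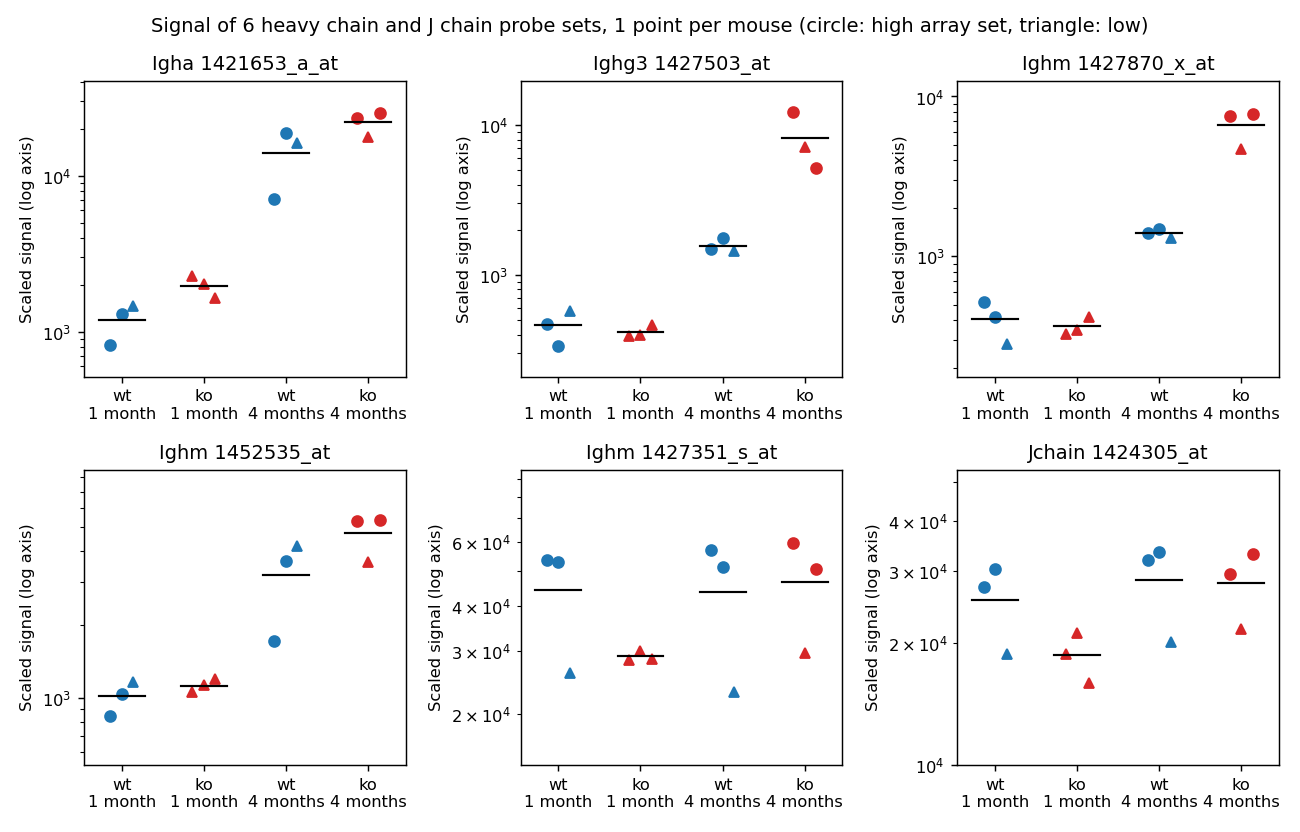
Scaled signal (log axis) of 6 probe sets in each of the 12 mice by group, with blue for wt, red for ko, circles for arrays of the high set, triangles for the low set, and a bar at the mean of 3 mice. Igha 1421653_a_at, Ighg3 1427503_at and Ighm 1427870_x_at are higher at 4 months, the last pair with ko above wt at 4 months, while Ighm 1427351_s_at, close to the highest signal that defines the sets, and Jchain split by array set.

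Igha, the heavy chain of IgA, was brighter at 4 months than at 1 month in both genotypes, by 7.61-fold to 12.6-fold in mean signal over its 3 probe sets. Probe set 1421653_a_at read 826, 1295 and 1461 in wt at 1 month and 2268, 2021 and 1640 in ko at 1 month. It read 7128, 18693 and 16172 in wt at 4 months and 23269, 17637 and 25191 in ko at 4 months. Every 4-month array lay above every 1-month array, the ko arrays lay above the wt arrays at 1 month, and at 4 months ko replicate 2 fell below wt replicate 2. The mean signal was 11.7-fold higher at 4 months in wt (log2 difference 3.44, SE 0.29) and 11.1-fold higher in ko (3.45, SE 0.29).

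The genotype difference of Igha was smaller, at 0.74 (SE 0.29) at 1 month and 0.75 (SE 0.29) at 4 months for the same probe set. The other Igha probe sets gave 0.44 (1425763_x_at, SE 0.27) and 0.70 (1429381_x_at, SE 0.34) at 1 month and 0.89 and 1.06 at 4 months. At 1 month all 3 probe sets had ko above wt with no overlap, and at 4 months 2 of the 3 did. Within the low set, which held each 1-month ko array but a single wt array of that age, the 1-month differences were 0.42 (1421653_a_at), 0.22 (1425763_x_at) and 0.64 (1429381_x_at). At 4 months wt replicate 1, the array with the high Gapdh ratio, was the lowest of its group in all 3 probe sets. Without it, the difference for 1421653_a_at was 0.32. Between the single low-set arrays of each genotype at 4 months the 3 probe sets differed by 0.12, 0.25 and 0.09, and in the high set, 2 ko against 2 wt arrays, by 1.07, 1.21 and 1.54. The 2 high-set wt arrays were this replicate 1, at 7128, 6093 and 2481, and replicate 2, at 18693, 16206 and 9235. Replicate 2 was the array with the high pancreas signal. The high-set differences thus include the low values of replicate 1.

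Ighg3, the heavy chain of IgG3, was similar in both genotypes at 1 month and brighter in ko at 4 months, on 1 of its 4 probe sets. Probe set 1427503_at read 469, 335 and 576 in wt and 390, 395 and 464 in ko at 1 month. At 4 months it read 1486, 1764 and 1441 in wt and 12306, 7191 and 5156 in ko. The genotypes overlapped at 1 month and were far apart at 4 months. The mean was 5.26-fold higher in ko at 4 months (log2 difference 2.28, SE 0.25), against -0.11 (SE 0.25) at 1 month, so the genotype effect was larger at 4 months by 2.39 (SE 0.35). The difference was 2.29 between the low-set arrays and 2.28 within the high set. It ranged from 1.95 to 2.57 when each array was left out.

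With age the same probe set was 3.40-fold higher in mean signal in wt (1.72, SE 0.25) and 19.7-fold higher in ko (4.11, SE 0.25). A second Ighg3 probe set, 1447998_at, read between 110 and 320 on all arrays. It was higher at 4 months with no overlap, by 0.45 in wt and 0.66 in ko. Its genotype difference was -0.28 at 1 month and -0.07 at 4 months (SE 0.23 for each difference). The remaining pair, 1426198_at and 1426199_x_at, never reached a scaled signal of 100. The genotype difference of Ighg3 at 4 months therefore rests on 1 probe set of 4.

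Probe sets annotated as Ighm, the heavy chain of IgM, did not behave alike. In 4 of them, 1427870_x_at, 1425247_a_at, 1427756_x_at and 1425324_x_at, signals at 1 month were low and signals at 4 months in ko were high. Probe set 1427870_x_at read 517, 416 and 283 in wt and 329, 347 and 418 in ko at 1 month. It read 1411, 1484 and 1296 in wt and 7510, 4666 and 7805 in ko at 4 months. The genotypes overlapped at 1 month and did not at 4 months, when the lowest ko array was well above the highest wt array.

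Probe set 1425247_a_at went from 140 to 236 in wt at 1 month to 3731 to 6073 in ko at 4 months, with wt at 4 months at 799 to 1122. The ko against wt differences at 4 months were 2.19 (SE 0.21) for 1427870_x_at, 2.32 (SE 0.24) for 1425247_a_at, 2.44 (SE 0.27) for 1427756_x_at and 2.0 (SE 0.28) for 1425324_x_at. At 1 month they were -0.11, -0.01, 0.62 and 0.41. With age 1427870_x_at and 1425247_a_at were higher by 1.74 and 2.35 in wt and by 4.05 and 4.68 in ko. For 1425247_a_at this was 5.77-fold and 30.2-fold in mean signal. Probe sets 1427756_x_at and 1425324_x_at read 19.8 to 86.9 in wt and 56.0 to 114 in ko at 1 month. They passed the filter only with the 4-month arrays. Their age differences were 2.79 and 2.91 in wt and 4.61 and 4.49 in ko. These, and their genotype differences at 1 month, therefore depend on the offset. Between the low-set arrays at 4 months the genotype differences of the 4 probe sets were 1.35 to 1.92, and within the high set 2.32 to 2.70.

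Probe set 1452535_at was also annotated as Ighm and was higher at 4 months in both genotypes. It read 849, 1035 and 1166 in wt and 1055, 1126 and 1194 in ko at 1 month, and 1710, 3626 and 4206 in wt and 5281, 3621 and 5375 in ko at 4 months. Its age difference was 1.53 (SE 0.25) in wt and 2.03 (SE 0.25) in ko. The genotypes overlapped at both ages, at 0.15 (SE 0.25) and 0.65 (SE 0.25), and between the low-set arrays at 4 months the sign was turned, at -0.21. As for Igha, wt replicate 1 was the lowest array of its group at 4 months.

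The 2 brightest Ighm probe sets ranked among the highest signals of the whole array. Probe set 1427351_s_at read 53526, 52920 and 26002 in wt and 28266, 30007 and 28501 in ko at 1 month. At 4 months it read 57112, 51246 and 23035 in wt and 59670, 29490 and 50714 in ko. It was the highest signal in 3 of the 12 arrays and stood at 68.9% to 100% of the array's highest signal. The array sets were defined by that highest signal. The probe set's values, 23035 to 30007 in the low set and 50714 to 59670 in the high set, are not independent of that definition.

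The ko against wt difference of 1427351_s_at at 1 month, -0.54 (SE 0.33), became 0.17 with the array set as a block and 0.15 within the low set. For this probe set the block is set in part by its own signal, so these values are no independent adjustment. At 4 months it was 0.13 (SE 0.33). Probe set 1427329_a_at ran from 27791 to 32632 in the low set and from 36234 to 52456 in the high set. Its differences were -0.19 at 1 month and 0.08 at 4 months (SE 0.21 for each). Within the low set its mean log2 signal at 1 month was 14.77 in wt (1 array) and 14.86 in ko. The other 4 Ighm probe sets, 1425385_a_at, 1426196_at, 1451949_at and 1427869_at, reached a scaled signal of 100 in at most 2 arrays. The annotation gives all 11 the same symbol. Several are of the _x_at kind, whose probes can bind related transcripts, and which heavy chain transcripts each probe set binds was not tested.

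Jchain was measured by 1 probe set, 1424305_at, and was bright at both ages. It read 27434, 30369 and 18777 in wt and 18718, 21166 and 15924 in ko at 1 month. At 4 months it read 32087, 33419 and 20047 in wt and 29610, 21622 and 33182 in ko. The 6 low-set arrays lay between 15924 and 21622 and the 6 high-set arrays between 27434 and 33419, so the sets did not overlap while the genotypes did at both ages.

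For Jchain, ko minus wt came to -0.44 on the log2 scale (SE 0.22) at 1 month, and to -0.01 (SE 0.22) at 4 months. With the array set as a block the 1-month value was -0.02, and within the low set, 3 ko arrays against 1 wt array, it was also -0.02. The sets are defined by the highest signal of an array. Whether they are independent of bright signals such as Jchain was not tested. With age Jchain differed by 0.15 (SE 0.22) in wt and by 0.58 (SE 0.22) in ko, and the ko value was 0.17 with the array set as a block. Within each set the age difference in wt was 0.09 (low) and 0.18 (high). On every array Jchain stood at 39.8% to 65.2% of the array's highest signal.

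**Figure D2:**
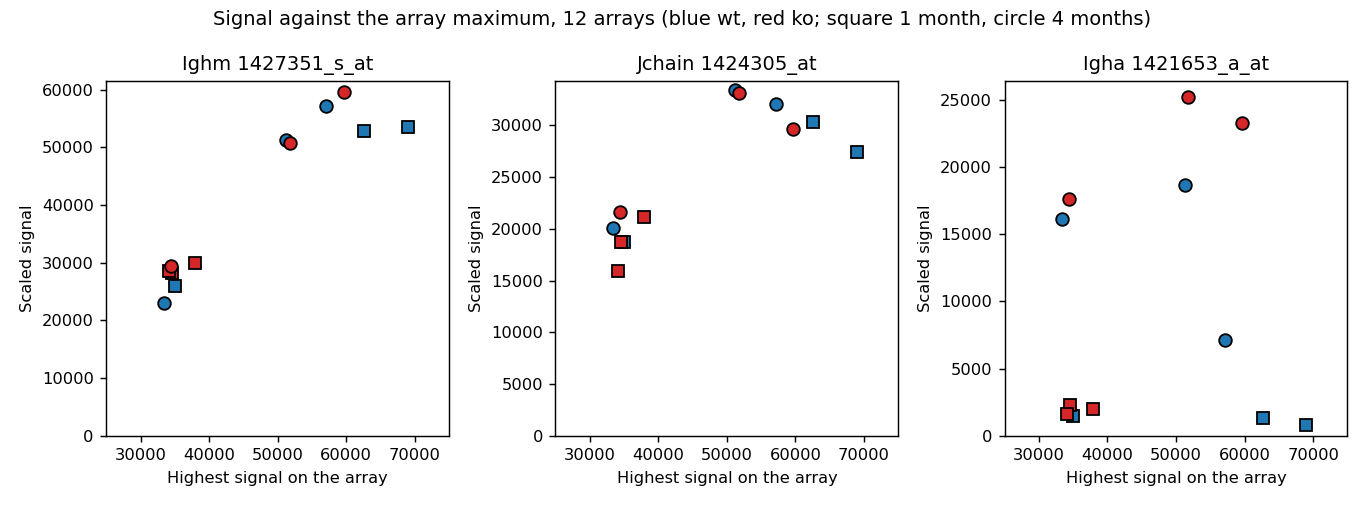
Scaled signal of Ighm 1427351_s_at, Jchain 1424305_at and Igha 1421653_a_at against the highest deposited signal of the same array, 1 point per array, with blue for wt, red for ko, squares for 1 month and circles for 4 months. The low-set arrays have Jchain at 15924 to 21622 and the high-set arrays at 27434 to 33419, whereas Igha separates by age.

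**Figure D3:**
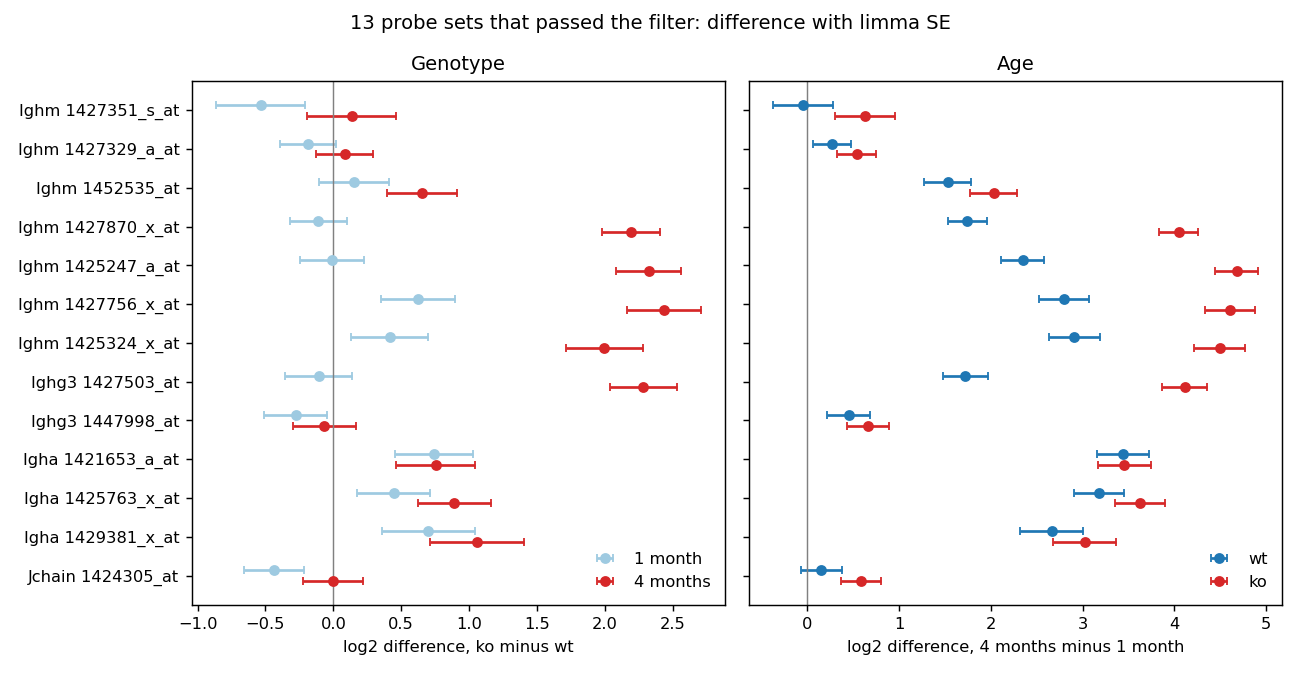
The log2 difference with its limma SE for the 13 probe sets that passed the filter, by genotype at 1 month and at 4 months (left) and by age in wt and in ko (right). Ighg3 1427503_at and 4 Ighm probe sets stand at 2.0 to 2.44 for genotype at 4 months, and Igha stands at 2.66 to 3.63 for age in both genotypes.

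Likeness was measured as the mean absolute difference of log2 signals over the 12 arrays, after each probe set was centred on its own mean. Jchain was closest to the bright Ighm probe set 1427329_a_at (0.11). Signals of both split by array set, and the part of the sets in this likeness was not tested. Of Igha, 2 probe sets were 0.15 apart. The Ighm probe sets 1425247_a_at and 1425324_x_at were 0.19 apart, and 1427870_x_at was closer to Ighg3 1427503_at (0.30) than to any other Ighm probe set. Ighg3 1447998_at was 1.24 from Ighg3 1427503_at and closest to Ighm 1427329_a_at (0.29), and Ighm 1452535_at was closest to Igha 1429381_x_at (0.56).

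Among tested probe sets with 1 symbol outside the members, the closest to Ighg3 1427503_at were Dbp (0.54, and 0.65 for a second Dbp probe set), the kappa variable gene Igkv9-120 (0.60), A4galt (0.72) and C6 (0.75). For Igha 1421653_a_at they were Igkv9-120 (0.71), Thrsp (0.72), Dbp (0.74 and 0.76) and Igk (0.83). For Ighm 1452535_at they were Tef (0.25), Gm2a (0.25), Nr1d1 (0.26), Vcam1 (0.27) and Igk (0.27). Dbp was the closest non-member of Ighm 1427870_x_at, 1425247_a_at, 1427756_x_at and 1425324_x_at too, at 0.53 to 0.78.

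Of 96 other tested probe sets of the antibody pathway, 1 was called for genotype at 1 month and 7 at 4 months. An unadjusted limma p under 0.05 was found for 30 at 1 month and 28 at 4 months. The 96 came in 5 lists: other immunoglobulin probe sets, plasma cell differentiation and secretion, class switching, antibody receptors and transport, and mature B cells. At 4 months 7 of the 96 passed the test (limma, adjusted p under 0.05), of which 2 were higher in ko and 5 lower, against 2.30% of all 27041 probe sets tested (1.78% higher, 0.518% lower). At 1 month 1 of the 96 was called, the complement receptor gene Cr2 of mature B cells (-0.71, SE 0.15, limma adjusted p = 0.045), against 0.444% of all (0.203% higher, 0.240% lower). The Cr2 call was lost when 9 of the 12 arrays were left out in turn, and when the array set entered as a block, while without wt at 1 month replicate 3 the count at this age was 12. Over both ages 16 of the 96 were called lower in ko and 0 higher, against 5.39% of all (2.83% higher, 2.56% lower), and the count ran from 6 without ko at 4 months replicate 3 to 22 without wt at 1 month replicate 3. It was 8 without wt at 1 month replicate 2, ko at 1 month replicate 3 or ko at 4 months replicate 2, 9 without wt at 4 months replicate 1 and 10 without ko at 4 months replicate 1. None of the 96 was called by limma for a difference of the genotype effect between ages, where 13 had an unadjusted p under 0.05, against 0.0481% called of all probe sets tested.

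Of 20 other immunoglobulin probe sets tested, all but 1 of them light chain, the kappa variable gene Igkv6-20 was called higher in ko at 4 months (1.06, SE 0.20, limma adjusted p = 0.0103), with no overlap between the 3 ko and 3 wt arrays. The other 19 were not called, and the median difference over the 20 was 0.06, against -0.01 for all probe sets tested. Igkv9-120 (0.87, SE 0.37, limma adjusted p = 0.265) and Igkv4-72 (0.67, SE 0.34, limma adjusted p = 0.351) had the next largest positive differences. Igkv19-93 had the largest negative one, on 1 of its probe sets (-0.75, SE 0.43, limma adjusted p = 0.418). The genotype effect at 4 months minus that at 1 month was -0.73 for it and 0.36 for another tested Igkv19-93 probe set. Over both ages these probe sets stood at -0.39 and -0.09. The Igkv9-120 probe set given above had 1.02 for the same change and 0.36 over both ages. Another tested Igkv9-120 probe set had 0.06 and 0.42. The Igkv6-20 call was lost without wt at 4 months replicate 1 or ko at 4 months replicate 3 (limma adjusted p 0.0718 at most), and the difference between the low-set arrays was 0.37.

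None of 34 genes of plasma cell differentiation and secretion was called by limma for genotype at 4 months, where 8 had an unadjusted p under 0.05. Their median difference was -0.07, with a range from -0.47 to 0.67. Derl3, which acts in endoplasmic reticulum quality control, was the highest (0.67, SE 0.19, limma adjusted p = 0.0911), and Ero1b, an oxidase of protein folding, the lowest (-0.47, SE 0.16, limma adjusted p = 0.154); both are named after their values were seen. Over both ages 4 were called lower, Ero1b, Mzb1, Hspa5 and Tnfrsf13b, at -0.40 to -0.51, and 0 higher. With each array left out in turn, the Hspa5 call was lost in 11 of 12 fits, that of Tnfrsf13b in 9, that of Mzb1 in 7 and that of Ero1b in 3. Of 12 such calls of named genes over both ages in all 5 lists, 5 were kept in every one of these fits. The summed signal of the list was 116173 to 122500 in wt and 114012 to 117005 in ko at 4 months.

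Genes of mature B cells and of class switching were lower in ko where they were called. At each age 10 of 17 mature B cell genes had all 3 ko arrays below all 3 wt arrays, and 0 above. Among all tested probe sets the share lying below was 11.9% at 1 month and 11.4% at 4 months. At 1 month all ko arrays were in the low set. Of 17 mature B cell genes, 3 were called lower at 4 months and 0 higher: the activation marker Cd83 (-0.92, SE 0.19, limma adjusted p = 0.0159), the BAFF receptor gene Tnfrsf13c (-0.76, SE 0.17, limma adjusted p = 0.0238) and Spib, which encodes an Ets family factor (-0.65, SE 0.15, limma adjusted p = 0.028). Of 14 class switching genes, the transcription factors Bach2 (-0.88, SE 0.18, limma adjusted p = 0.0176) and Bcl6 (-0.80, SE 0.19, limma adjusted p = 0.0389) were called lower and 0 higher. Both repress plasma cell differentiation. Of 12 antibody receptor and transport genes, Cd5l, a macrophage protein that binds IgM in serum, was called higher (0.60, SE 0.15, limma adjusted p = 0.0419). Each of these 6 calls was lost when at least 1 array was left out, and the count of 7 fell to 0 without ko at 4 months replicate 3, to 1 without wt at 4 months replicate 1 or ko at 4 months replicate 2, to 2 without wt at 4 months replicate 3 and to 3 without ko at 4 months replicate 1. It was 3 with each array centred on its median.

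**Figure D4:**
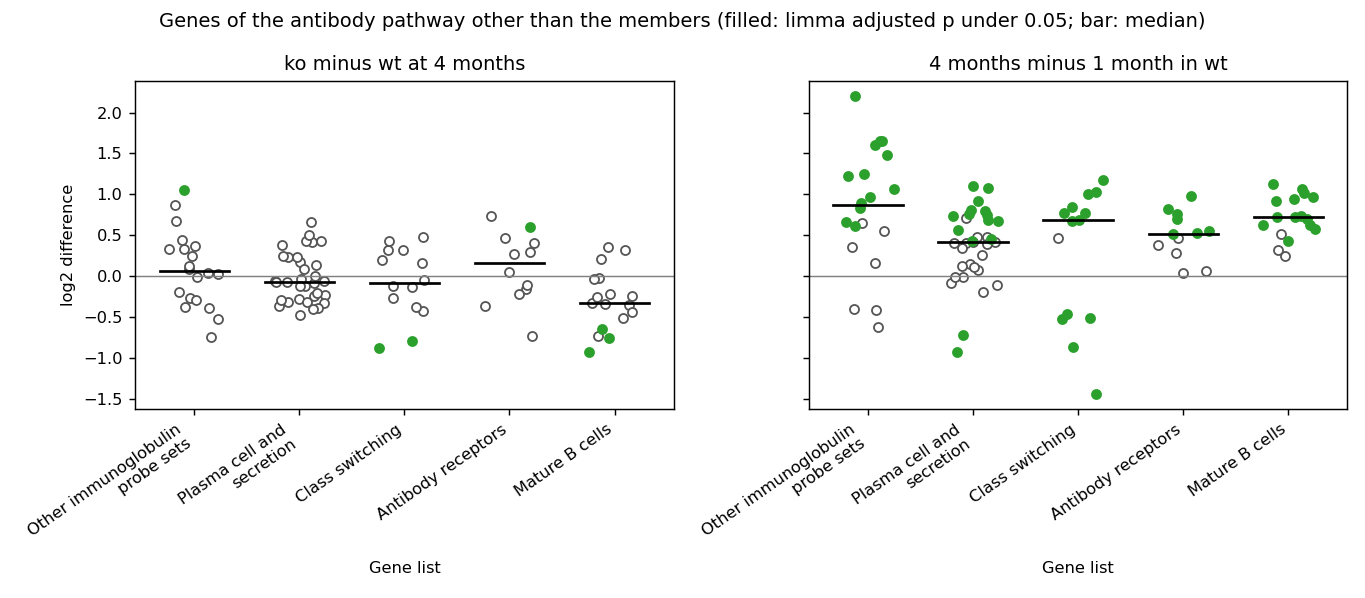
The log2 difference of each tested gene of 5 lists that exclude the members, for ko minus wt at 4 months (left) and for 4 months minus 1 month in wt (right), with filled points at a limma adjusted p under 0.05 and bars at the list median. The plasma cell median is -0.07 on the left and 0.42 on the right, and that of other immunoglobulin probe sets 0.06 and 0.86.

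With age, most of the antibody pathway was higher. In wt 61 of the 96 were called, 54 higher and 7 lower at 4 months, against 21.4% of all probe sets tested (11.8% higher, 9.67% lower). In ko 63 were called, 57 higher and 6 lower, against 22.9% of all (13.6% higher, 9.25% lower). Other immunoglobulin probe sets had a median age difference of 0.86 in wt, with 13 of 20 called higher and 0 lower, and of 1.12 in ko, with 16 called higher and 0 lower. The median over all probe sets tested was 0.09 in wt and 0.10 in ko.

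The kappa variable genes Igkv14-111 (2.20, SE 0.44), Igkv9-120 (1.65, SE 0.37) and Igkv4-72 (1.65, SE 0.34) and an Igk probe set (1.61, SE 0.29) had the largest differences in wt. Genes of plasma cell differentiation and secretion had a median of 0.42 in wt, with 13 of 34 called higher and 2 lower, and of 0.45 in ko, with 13 higher and 1 lower. Prdm1, which encodes Blimp-1, the regulator of plasma cell differentiation, rose by 1.19 (SE 0.17) in ko and 0.76 (SE 0.17) in wt. Txndc5, a disulfide isomerase, rose by 1.24 (SE 0.14) in ko and 0.68 (SE 0.14) in wt, and Derl3 by 1.26 (SE 0.19) and 0.79 (SE 0.19).

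Pdia4, a disulfide isomerase, rose by 1.10 (SE 0.20) in wt, Herpud1 by 1.07 (SE 0.21) and the B cell coactivator Pou2af1 by 0.73 (SE 0.13). Ell2, an elongation factor that promotes the secretory form of heavy chain mRNA in plasma cells, went the other way and fell by 0.92 (SE 0.17) in wt and by 1.07 (SE 0.17) in ko. The age difference in ko minus that in wt was 0.43 for Prdm1, 0.56 for Txndc5 and 0.47 for Derl3. For Pdia4 it was -0.24, for Herpud1 -0.52 and for Pou2af1 0.03. Its median over the 34 genes of this list was 0.01, with 18 above 0, and none was called by limma. Of 17 mature B cell genes, 14 were called higher and 0 lower in each genotype, among them Cr2 (1.13, SE 0.15, in wt), Ciita (1.07, SE 0.16, in wt) and Cd22 (1.17, SE 0.15, in ko).

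Class switching genes moved both ways with age, with 8 of 14 called higher and 5 lower in wt, and 4 higher and 5 lower in ko. In wt Icosl rose by 1.17 (SE 0.20) and Bcl6 by 1.03 (SE 0.19), while Exo1, an exonuclease of mismatch repair, fell by 1.45 (SE 0.20) and Ung, the uracil glycosylase that acts after the cytidine deaminase of class switching, by 0.87 (SE 0.17). Of 12 antibody receptor and transport genes, 7 were called higher in wt and 11 in ko, and 0 lower. Fcgr2b, the inhibitory IgG receptor, rose by 0.82 (SE 0.14) in wt and 1.26 (SE 0.14) in ko, and Fcgrt, which encodes the neonatal Fc receptor, by 1.13 (SE 0.17) in ko. Of the age calls of genes named by rule in these 5 lists, 19 of 20 in wt and 16 of 16 in ko were kept with each array left out in turn; the exception, Fcer2a in wt, was lost without wt at 1 month replicate 1 (limma adjusted p = 0.051).

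Other cell types also moved between the same groups. The summed signal of 17 mature B cell genes was 62290 to 69327 in wt and 44443 to 54178 in ko at 1 month, and 99290 to 115476 in wt and 79247 to 96197 in ko at 4 months. That of 9 T cell genes was 9212 to 10497 in wt and 6687 to 8362 in ko at 1 month, and 14047 to 15813 and 11736 to 13943 at 4 months. The sum of 11 neutrophil genes was 44585 to 54851 in wt and 129383 to 160846 in ko at 1 month, and 9823 to 14794 and 52544 to 70045 at 4 months. The sum of 7 erythroid genes was 90169 to 118843 in wt and 92632 to 104091 in ko at 1 month, and 32411 to 54238 and 68560 to 78852 at 4 months. The part of these shifts in the heavy chain signals was not tested.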

How the data were processed

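The authors deposited linear MAS5 signal intensity, 1 value for each probe set and array; the submitters' processing notes name MAS5, version not stated. The 2% trimmed mean of each array, computed from the values, was 500. Each array was scaled to 500, 32 was added and log2 was taken, so differences of low probe sets are understated. Testing kept the 27041 probe sets that reached 100 after scaling on 3 or more arrays, with 64 controls left out. In the annotation 34958 probe sets have 1 symbol, 932 have several and 9211 have none; symbols were updated through gene IDs to a GRCm38.p6 gene table. With limma 3.58.1 (R 4.3.3), lmFit estimated a mean for each of the 4 groups, followed by eBayes with a trend (8 residual degrees of freedom), and 6 contrasts were adjusted by Benjamini-Hochberg over all tested probe sets. SE is limma's. P-values set each difference against the spread of mice within groups, pooled over the 4 groups and moderated by eBayes. With 3 mice a group, the number of arrays limits the precision.

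A gene in a list was represented by its probe set with the highest mean. Named are all members, Il1rn, up to 4 called genes with the smallest p for each list and contrast, up to 4 other immunoglobulin probe sets with the largest absolute difference in each of 2 contrasts, and the 5 closest non-members of each member probe set whose group means span at least 1 log2 unit. The members and lists were chosen with earlier results of these data known. The test was checked on simulated data for ko against wt at 4 months with 27041 probe sets: 64 of 100 probe sets changed by log2 1 and 99 of 100 changed by log2 2 were called, as were 10 unchanged ones. Alternatives were other scalings, offsets, filters and priors, the replicate number or the array set as a block, each array set alone, and each array left out.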

Additional observations from a re-analysis of the deposited data

How the results depend on the processing

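Of the 78 member differences, none above 0.67 in size changed sign under an alternative. Outside the array sets and left-out arrays, 6 of 832 member values moved by more than 1 residual SD, the largest by 0.72 (Ighm 1425324_x_at with age in wt, at an offset of 1). With the array set, which is defined by the highest signal of an array and so in part by Ighm 1427351_s_at itself, as a block, Ighm 1427351_s_at was at 0.17 for genotype at 1 month and -0.075 for age in ko, Ighm 1427870_x_at at 0.23 and 3.71, and Jchain at -0.022 and 0.17. Within the low set the same pairs were 0.15 and 0.028, 0.33 and 3.57, and -0.023 and 0.23. That set holds 1 wt array of each age and 1 ko array at 4 months. There Ighm 1427870_x_at was also at 1.82 for genotype at 4 months and 2.07 for age in wt, Ighg3 1427503_at at 1.28 for age in wt and Igha 1421653_a_at at 0.12 for genotype at 4 months. Genotype at 1 month could not be fitted within the high set, which has no ko array of that age.

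Of the 96 antibody pathway probe sets, the count called for genotype at 1 month was 1, and 0 with median centring, no filter, eBayes without a trend, only the arrays compared, the replicate block and the array set as a block. At 4 months it was 7, and 3 with median centring, 1 without a trend, 0 within the low set and 1 within the high set. Over both ages it was 16, and 9 with median centring, 9 with no filter, 6 without a trend and 0 within the low set. With age in wt it was 61, and 14 within the low set; in ko it was 63, and 41 within the low set. With each array left out, the count ran from 0 to 12 at 1 month, from 0 to 9 at 4 months and from 6 to 22 over both ages. The 12 and the 22 came without wt at 1 month replicate 3. With age it was 45 to 61 in wt and 54 to 66 in ko.

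Same-numbered arrays of different groups had deviations correlated at -0.20 to 0.21, over 0.1 in 4 of 18 pairs. The replicate numbers thus gave no sign of paired mice, though 3 arrays a group cannot exclude a pairing. The replicate block gave 7 calls at 4 months, 16 over both ages, 61 with age in wt and 64 in ko.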
